A study of Mus musculus with 10 samples.

Results

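A group of 9 genes of retinoid uptake and signaling was followed in the RNA of a mouse small cell lung cancer (mSCLC) line cultured with stiripentol or with its solvent DMSO. Stiripentol is an antiseizure drug that the study examined as an inhibitor of respiratory complex I. The 9 genes are Stra6, Rbp4, Crabp1, Crabp2, Rarb, Aldh1a1, Aldh1a2, Aldh1a3 and Dhrs3, and all 9 had a row among the 26335 rows of the expression table. They were chosen by name, and the group was picked from the results of this same comparison because of the very low Stra6 level after stiripentol. The change of a member between the groups is therefore given as a description, with no p-value.

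Both groups were of 1 line, established from tumors of mice in which Rb1 and Trp53 are deleted by Cre delivered to the lung. The 5 control libraries came from cells kept with DMSO for 48 h, and the 5 stiripentol libraries from cells kept with 250 μM stiripentol for 48 h. The unit is log2 CPM, which is the reads of a gene scaled to the depth of its library (CPM) on a log2 scale. Controls held 22375625 to 65299372 reads and stiripentol libraries 55015760 to 60670901. A gene with no reads has a log2 CPM of -4.82 in controls 1 to 3 and of -4.74 in the other 7 libraries. The libraries of each group also fell into 2 clusters of like expression, called here the set of 3 (controls 1 to 3, stiripentol 3 to 5) and the set of 2 (controls 4 and 5, stiripentol 1 and 2). The sets were found from the values and have no label of their own, so member values are given in each. Clusters were found in each group apart and joined across groups by their size only. Both control clusters were closer to stiripentol 3 to 5 than to stiripentol 1 and 2. Pearson's r was 0.93 to 0.94 against 0.88 to 0.90 for controls 4 and 5. For controls 1 to 3 it was 0.92 to 0.94 against 0.84 to 0.88. A difference within a set is thus not a matched comparison. The median change over all genes was -0.056 on the log2 scale with all libraries, 0.084 in the set of 3 and -0.254 in the set of 2.

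The labelled cell type was weakly marked. Of 9 neuroendocrine markers with a row, 6 had at most 20 reads in every library, and 1 of these had 0 reads in all 10. Ncam1, a neural adhesion protein also found on other cells, had a mean log2 CPM of 6.69 in control and 7.15 in stiripentol. Rb1 had 252 to 487 reads per control and 402 to 1443 per stiripentol library, and Trp53 had 30 to 236 and 50 to 147. Reads summed over a whole gene do not show whether some of its exons are missing.

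Vitamin A travels in blood as retinol bound to the carrier RBP4, and the membrane protein STRA6 lets retinol pass into or out of cells. Inside the cell, retinol is oxidized to retinaldehyde and then, irreversibly, to retinoic acid by the ALDH1A enzymes, while enzymes such as DHRS3 turn retinaldehyde back into retinol. Retinoic acid is carried by CRABP proteins and acts through RAR and RXR receptors in the nucleus. The lung depends on this pathway for branching and alveolar growth.

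RAR and RXR bind DNA as a pair, on repeated half-sites of the type AGGTCA. The best known example lies before the Rarb gene. RefSeq promoter windows on GRCm38, the assembly also called mm10, were matched by symbol for 7 of the 9 members, in 14 windows, of which the 250 bases before the start were searched. The search took the canonical half-site AGGTCA, its common version GGGTCA, the version AGTTCA present before Rarb and the version GGTTCA also present there, on both strands. One window held 2 half-sites in the same direction with 5 bases between them, that of Rarb, and 29 of the 32851 windows searched held such a repeat (0.088%). Since the search included the letters present before Rarb, the Rarb match was fixed in advance. Single half-sites were common, in 38.6% of all windows. Among the member windows, 3 held at least 1 half-site, those of Rarb, Aldh1a1 and Rbp4. Stretches around the matches are shown in the direction of the gene so that the receptor's own known element can be set beside the single matches. Capitals mark half-sites, which read GGGTCA on the other strand for Aldh1a1 and Rbp4.
Rarb, chr14:16575507-16575535, minus strand, first capital 53 bases before the start: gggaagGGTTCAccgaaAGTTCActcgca
Aldh1a1, chr19:20601907-20601936, plus strand, first capital 49 bases before the start: ccgatatgcaaaTGACCCttagtgcatgca
Rbp4, chr19:38125357-38125386, minus strand, first capital 53 bases before the start: aagaataaatatTGACCCaaacagcaccac
None of the 4 Stra6 windows held these letters. The first of them, chr9:58128838-58129087, plus strand, is shown because Stra6 has the greatest difference of the group. It lies in an intron of a longer annotated Stra6 transcript and touches no annotated exon.
Stra6: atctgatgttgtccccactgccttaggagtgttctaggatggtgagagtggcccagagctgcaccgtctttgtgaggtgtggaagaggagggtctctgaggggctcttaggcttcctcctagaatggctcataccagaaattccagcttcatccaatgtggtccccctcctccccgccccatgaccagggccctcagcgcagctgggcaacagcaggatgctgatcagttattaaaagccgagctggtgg
A match is a match of letters only, and its lack says nothing of a binding site elsewhere.

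The uptake gene Stra6 (ENSMUSG00000032327, chr9:58063788-58153996, plus strand) was the member with the greatest difference. Its log2 CPM was 3.47, 3.16, 3.41, 2.09 and 2.77 in controls 1 to 5. It was -3.06, -2.66, -1.38, -2.41 and -1.53 in stiripentol libraries 1 to 5. Every stiripentol library lay far below every control, and the groups did not overlap. These values rest on 722, 515, 675, 268 and 152 reads in the controls and on 5, 7, 20, 9 and 17 reads in the stiripentol libraries. The mean level was 8.31 ± 2.84 CPM in control (SD, n = 5) and 0.202 ± 0.118 CPM in stiripentol (SD, n = 5), a ratio of 41.2. Reads did not vanish after stiripentol, as all 5 libraries had some.

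On the log2 scale the Stra6 difference was -5.19 with an SE of 0.40, the fifth lowest of the 12306 genes fitted. It hardly moved between the sets, at -5.12 in the set of 3 and -5.29 in the set of 2. Within each group the level was higher in the set of 3, by 0.92 among controls and 1.09 among stiripentol libraries. Stra6 entered the fit through its controls. A gene was fitted when its mean log2 CPM over all 10 libraries was above 0, and the mean of Stra6 was -2.21 in stiripentol alone. The size of so large a difference depends on the value added before the logarithm, and with 1 CPM added it was -2.90. Stra6 overlaps Ccdc33 on the opposite strand over 55036 bases, and Ccdc33 had at most 12 reads in any library.

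**Figure D1:**
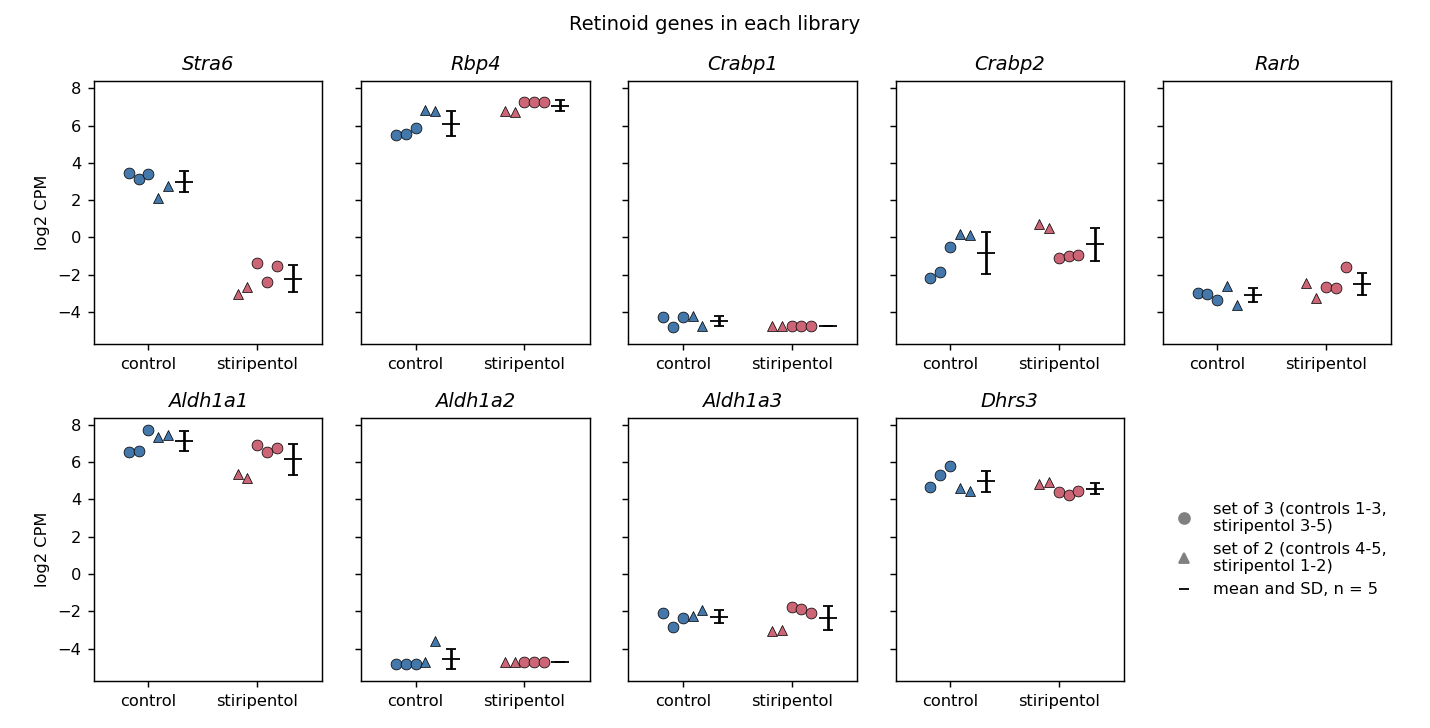
Log2 CPM of the 9 members in each of the 5 control and 5 stiripentol libraries, with circles for the set of 3, triangles for the set of 2 and bars for the mean and SD of each group. Stra6 is the member whose groups stand apart, Rbp4 is high in all 10 libraries, and Crabp1 and Aldh1a2 lie at or near the value of 0 reads.

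Rbp4 (ENSMUSG00000024990, chr19:38116629-38125281, minus strand), the retinol carrier, had a log2 CPM of 5.48, 5.56, 5.86, 6.82 and 6.78 in controls 1 to 5. In stiripentol libraries 1 to 5 it had 6.77, 6.74, 7.27, 7.28 and 7.24. The groups overlapped, since controls 4 and 5 were as high as stiripentol libraries 1 and 2. The means were 74.4 ± 34.0 CPM in control and 136 ± 25.3 CPM in stiripentol (SD, n = 5 each), a ratio of 1.82. The log2 difference of 0.96 (SE 0.28) was made in the set of 3, where it was 1.64, and was -0.04 in the set of 2. Without controls 1 to 3, which carry the other value for 0 reads, it was 0.26. So Rbp4 was high in every library, and its difference depended on which libraries were compared.

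**Figure D2:**
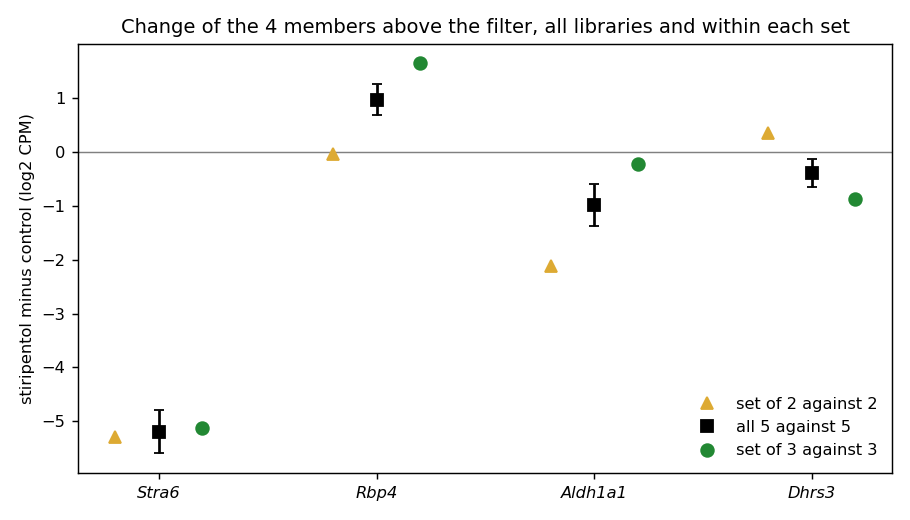
Stiripentol minus control in log2 CPM for the 4 members above the filter on low values, with squares for all 5 against 5 libraries (bar, 1 SE), circles for the set of 3 and triangles for the set of 2. Stra6 has nearly the same difference in both sets, while Rbp4 (1.64 and -0.04), Aldh1a1 (-0.23 and -2.13) and Dhrs3 (-0.88 and 0.34) have unlike values in the set of 3 and the set of 2.

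The cellular retinoic acid binding proteins were scarce. Crabp1 (ENSMUSG00000032291, chr9:54764748-54773110, plus strand), a cytosolic carrier, had 1, 0, 1, 1 and 0 reads in controls 1 to 5 and 0 reads in all 5 stiripentol libraries. A count of 0 allows up to 3 reads, or 0.0494 to 0.0545 CPM in these 5 libraries, so a difference was not detectable at this depth. Crabp2 (ENSMUSG00000004885, chr3:87948666-87953376, plus strand), which hands retinoic acid to its nuclear receptor, had 12, 14, 43, 70 and 24 reads in controls 1 to 5. It had 98, 79, 25, 28 and 26 reads in stiripentol libraries 1 to 5. The groups overlapped, at 0.655 ± 0.438 CPM in control and 0.870 ± 0.572 CPM in stiripentol (SD, n = 5 each). Crabp2 followed the sets rather than the treatment groups, since the set of 3 was lower than the set of 2 by 1.68 on the log2 scale among controls and by 1.62 among stiripentol libraries.

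Rarb (ENSMUSG00000017491, chr14:16430839-16819156, minus strand), the receptor that retinoic acid is known to induce through the repeat shown above, had 6, 5, 4, 8 and 1 reads in controls 1 to 5. It had 9, 4, 7, 7 and 16 reads in stiripentol libraries 1 to 5. The ranges overlapped, and the means were 0.0823 ± 0.0308 and 0.149 ± 0.0841 CPM (SD, n = 5 each). Rarb shares 1433 bases with Top2b, a highly read gene on the opposite strand with up to 15359 reads per control library. Whether reads were assigned by strand is not given in the sources used here, so the few Rarb reads are uncertain.

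Of the 3 enzymes that oxidize retinaldehyde to retinoic acid, Aldh1a1 was the only one to pass the filter on low values. Aldh1a1 (ENSMUSG00000053279, chr19:20492715-20643465, plus strand) had a log2 CPM of 6.54, 6.61, 7.74, 7.34 and 7.46 in controls 1 to 5. It had 5.38, 5.17, 6.93, 6.54 and 6.74 in stiripentol libraries 1 to 5. The groups overlapped, with stiripentol libraries 1, 2 and 4 below every control, library 4 by less than the digits shown. The means were 149 ± 52.3 CPM in control and 79.9 ± 39.0 CPM in stiripentol (SD, n = 5 each), and the log2 difference was -0.99 (SE 0.38). It was -2.13 in the set of 2 and -0.23 in the set of 3.

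Aldh1a7, a near copy of Aldh1a1 that lies 49.5 kb downstream, had a log2 difference of -1.40 (SE 0.67, limma adjusted p = 0.137). Its within-set values were -3.62 and 0.07 in the set of 2 and the set of 3. The longest match between transcripts of Aldh1a1 and Aldh1a7 at 90% identity or more ran over 429 bases, with 92.8% of them the same. Reads may thus be split between the pair. Aldh1a2 (ENSMUSG00000013584, chr9:71215789-71296243, plus strand), the main retinoic acid maker of the embryo, had 1 read in control 5 and 0 in the other 9 libraries. Aldh1a3 (ENSMUSG00000015134, chr7:66390890-66427517, minus strand) had 13, 6, 10, 11 and 5 reads in controls 1 to 5 and 5, 5, 15, 14 and 11 reads in stiripentol libraries 1 to 5. Its means were 0.171 ± 0.0456 and 0.172 ± 0.0831 CPM (SD, n = 5 each).

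Dhrs3 (ENSMUSG00000066026, chr4:144892827-144928209, plus strand), the reductase that returns retinaldehyde to retinol, had a log2 CPM of 4.66, 5.31, 5.78, 4.61 and 4.47 in controls 1 to 5. It had 4.85, 4.92, 4.41, 4.25 and 4.45 in stiripentol libraries 1 to 5. The ranges overlapped. The means were 33.3 ± 13.9 and 24.2 ± 4.97 CPM (SD, n = 5 each), and the log2 difference was -0.39 (SE 0.26). The difference was -0.88 in the set of 3 and 0.34 in the set of 2. Without controls 1 to 3 it was 0.03.

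Of the 9 members, 4 passed the filter on low values (Stra6, Rbp4, Aldh1a1 and Dhrs3), and 5 did not. In the fit over all genes, 14.1% of those tested were called lower in stiripentol at a limma adjusted p under 0.05, and 13.6% were called higher. By that rule 1 of the 4 counted as lower, Stra6, and 1 as higher, Rbp4. The members were picked with this contrast known and Stra6 for its fall, so these counts are a description and nothing is read from them.

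Other genes of the pathway were taken from a list set by role, with earlier results of these data known. It held 56 genes, of which 47 had a row and 30 were tested, and 3 were lower and 4 higher (10.0% and 13.3% of those tested, against 14.1% and 13.6% of all genes). The median difference of the 30 genes was -0.074, beside -0.056 over all genes. In the set of 2 alone 13 were lower and 4 higher, beside 5726 and 3158 of all 12306 genes. In the set of 3 alone 7 were lower and 12 higher, beside 3322 and 4637 of all genes. The balance of directions thus differed between the sets over all genes as it did in the list. Without controls 1 to 3, 3 were lower and 1 was higher, beside 1215 and 1249 of all genes. Lrat and Ttr, the storage enzyme and the blood carrier that holds RBP4, were not analysed here.

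For uptake, Lrp2, the endocytic receptor megalin that takes up carrier-bound vitamins, rose by 2.56 on the log2 scale (SE 0.60, limma adjusted p = 0.0117). It had 0.69, 0.17, 2.36, 2.60 and 3.40 log2 CPM in controls 1 to 5 and 3.69, 3.61, 5.13, 4.67 and 4.90 in stiripentol libraries 1 to 5. All stiripentol libraries were above all controls, by 3.83 on average in the set of 3 and by 0.65 in the set of 2. The call was lost without controls 1 to 3 (limma adjusted p = 0.0923). Stra6l, a receptor related to Stra6, had 1 to 18 reads per library over both groups.

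Of enzymes that make retinaldehyde, Rdh10, the main retinol dehydrogenase of development, fell by 1.34 (SE 0.40, limma adjusted p = 0.0305). Its log2 CPM was 7.08, 6.82, 6.92, 7.48 and 7.46 in controls 1 to 5. It was 4.64, 4.87, 6.56, 6.43 and 6.57 in stiripentol libraries 1 to 5. All stiripentol libraries were below all controls, with a difference of -2.71 in the set of 2 and -0.42 in the set of 3. The call was kept in 13 of 21 alternative analyses and was lost, among others, without control 1, 3, 4 or 5 or stiripentol 1 or 2 (limma adjusted p up to 0.109). Rdh10 and Aldh1a1, consecutive steps to retinoic acid, thus shared a larger difference in the set of 2, and no test of the difference between sets was made.

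Adh5, a broad alcohol and formaldehyde dehydrogenase, rose by 0.59 (SE 0.13, limma adjusted p = 0.0097). Its call was lost without controls 1 to 3 and with a block for the replicate number (limma adjusted p = 0.0578 with the block). Aox1, an oxidase of retinaldehyde and many other aldehydes, fell by 0.92 (SE 0.25, limma adjusted p = 0.0222), and its call was lost without stiripentol 2 (limma adjusted p = 0.0521). Rdh9, another retinol dehydrogenase, was below the filter and is named here after its values were seen. It had 0 to 45 reads per control library and 62 to 160 per stiripentol library.

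None of the 5 receptors tested was called. Rara, the broadly expressed retinoic acid receptor, differed by -0.50 (SE 0.23, limma adjusted p = 0.129). Its 5 controls lay close together, at 6.22, 6.19, 6.08, 6.14 and 6.32 log2 CPM, and stiripentol libraries 1 and 2, at 4.91 and 5.29, were below the other 3, at 6.05, 6.16 and 6.05. Rarg differed by 0.06 (SE 0.21, limma adjusted p = 0.852), with 0.63 in the set of 2 and -0.32 in the set of 3. The partner Rxra differed by -0.04 (SE 0.11, limma adjusted p = 0.803) and Rxrb by 0.17 (SE 0.14, limma adjusted p = 0.377). A p above the threshold does not show that the levels were equal.

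Coregulators are proteins that the receptors recruit to act on chromatin. Ncor1, a corepressor, rose by 0.51 (SE 0.12, limma adjusted p = 0.0137). Ncoa3, a coactivator, rose by 0.66 (SE 0.12, limma adjusted p = 0.0034). The Ncor1 difference was 0.23 in the set of 2 and 0.69 in the set of 3, and its call was lost in the set of 2 alone and without controls 1 to 3. These proteins serve many nuclear receptors besides RAR and RXR.

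Retinoic acid is broken down by the CYP26 enzymes, which retinoic acid itself induces. Cyp26a1 had at most 2 reads in any library. Cyp26b1 had 4.10, 3.72, 4.78, 0.92 and 1.47 log2 CPM in controls 1 to 5 and 1.56, 1.84, 3.66, 3.62 and 3.75 in stiripentol libraries 1 to 5. These values followed the sets and not the treatment, with a difference of -0.11 (SE 0.79, limma adjusted p = 0.926).

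**Figure D3:**
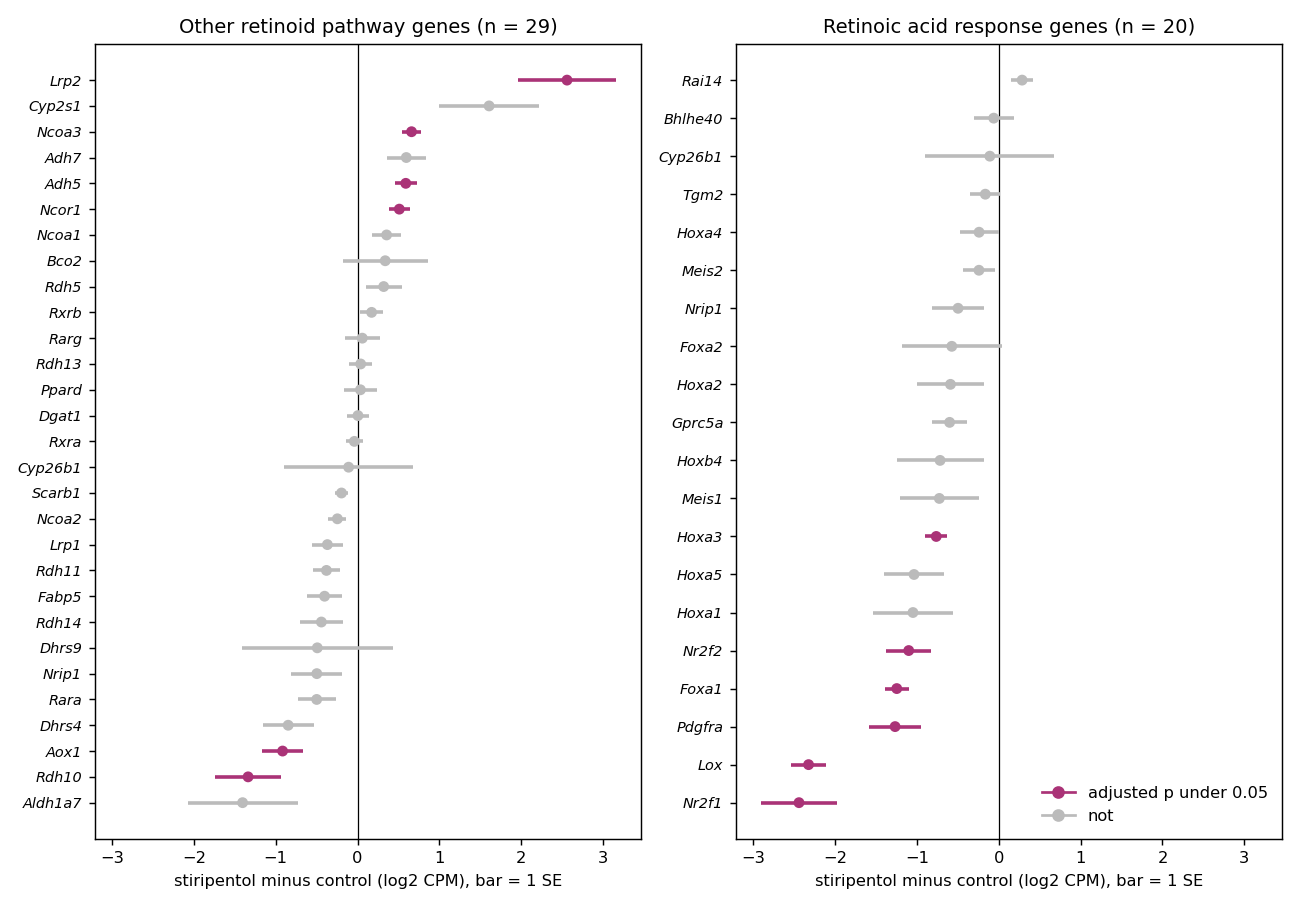
Stiripentol minus control in log2 CPM, with bars of 1 SE, for 29 of the 30 other retinoid genes (left) and 20 of the 21 retinoic acid response genes (right) that passed the filter, with 1 gene of each list not shown, in purple where the limma adjusted p was under 0.05. Called genes lie on both sides of 0 on the left and below 0 on the right.

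Genes widely described as induced by retinoic acid or its receptors formed the last list, with 32 genes, 28 with a row and 21 tested. The members are left out of it. Earlier results of these data were known when the genes were chosen, so the counts are a description and no test of retinoic acid action. Here again shares of all genes are set beside them. Those tested are the ones above the filter. Of the 21 tested, 7 were lower and 0 higher (33.3% and 0.0% of those tested, against 14.1% and 13.6% of all genes). An unadjusted limma p under 0.05 was found for 9, and limma voom on recovered reads gave 8 lower and 0 higher. The median difference was -0.717, beside -0.056 over all genes. Without controls 1 to 3, 7 were lower and 1 was higher, beside 1215 and 1249 of all 12306 genes. All of these genes also answer to other signals, and 4 stand in the list above too, of which none was called.

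Among homeobox genes, which pattern the body axis and of which 9 were tested, Hoxa3 fell by 0.76 (SE 0.14, limma adjusted p = 0.0029). Hoxa3 had 4.80, 4.85, 4.53, 4.71 and 4.88 log2 CPM in controls 1 to 5 and 3.75, 4.08, 3.86, 4.14 and 4.11 in stiripentol libraries 1 to 5. The groups did not overlap, and the difference was -0.88 in the set of 2 and -0.69 in the set of 3.

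The orphan nuclear receptors Nr2f1 and Nr2f2, which can compete with RAR and RXR for DNA, were both lower. Nr2f1 fell by 2.44 (SE 0.47, limma adjusted p = 0.0041), from 5.47, 5.34, 4.50, 3.26 and 3.12 log2 CPM in controls 1 to 5 to 1.36, 1.87, 1.96, 2.07 and 2.24 in stiripentol libraries 1 to 5. Nr2f2 fell by 1.10 (SE 0.27, limma adjusted p = 0.0144). The Nr2f2 call was lost without controls 1 to 3 (limma adjusted p = 0.189) and with a block for the replicate number (limma adjusted p = 0.0701). Foxa1, a pioneer factor of lung epithelium, fell by 1.25 (SE 0.15, limma adjusted p = 0.0004). Its controls lay between 6.01 and 6.19 log2 CPM and its stiripentol libraries between 4.34 and 5.10.

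Lox, which crosslinks collagen, fell by 2.32 (SE 0.21, limma adjusted p = 0.00011), with a difference of -3.02 in the set of 2 and -1.86 in the set of 3. Pdgfra, a growth factor receptor of mesenchymal cells, fell by 1.27 (SE 0.32, limma adjusted p = 0.0152). Its difference was -2.03 in the set of 3 and -0.12 in the set of 2, so it rests on the set of 3, and its call was lost without controls 1 to 3.

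Pdgfra is also a marker of mesenchymal cells, and some genes of that list were lower together with Stra6. This list too was chosen with earlier results known. Of its 11 genes, 8 were tested and 4 were lower, namely Col1a2, Col3a1, Pdgfra and Pdgfrb, while 0 were higher (50.0% and 0.0% of those tested, against 14.1% and 13.6% of all genes). The 4 not called were Col1a1, Dcn, Acta2 and Vim, with differences of -0.54, -0.49, -1.44 and 0.28. Col3a1, a fibrillar collagen, fell by 5.71 on the log2 scale (SE 0.77, limma adjusted p = 0.0007), with a difference of -7.56 in the set of 3 and -2.95 in the set of 2. The summed level of the list was 2757 to 4230 CPM in controls and 2563 to 4728 CPM in stiripentol libraries, most of it from Vim, an intermediate filament gene. Without Vim, the sum of the other 10 genes was 668 to 858 CPM in controls and 178 to 254 CPM in stiripentol libraries, and the groups did not overlap. Leaving Vim out was decided after the values had been seen. Lum and Thy1 had at most 3 reads in any library. Of the other marker lists, the 4 tested epithelial genes gave 2 lower (Krt8 and Foxj1), and the 2 tested immune genes gave 1 higher, the lysosomal Cd68, by 3.21 (SE 0.44, limma adjusted p = 0.0008), while the leukocyte gene Ptprc had at most 3 reads. None of the 4 endothelial genes passed the filter. In bulk RNA, fewer cells of a type and less RNA per cell cannot be told apart, and the part of these genes in the Stra6 difference was not tested.

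Neighbors of Stra6 on chromosome 9 were described after its values had been seen. Islr, an extracellular protein of mesenchymal cells whose gene lies 2.3 kb after the end of Stra6, fell by 3.48 (SE 0.64, limma adjusted p = 0.0034). Like Stra6, Islr entered the fit through its controls, as its mean log2 CPM was -0.12 in stiripentol alone. Islr had 3.46, 3.38, 5.24, 2.16 and 2.54 log2 CPM in controls 1 to 5 and -1.38, -1.15, 0.59, 0.92 and 0.41 in stiripentol libraries 1 to 5. The groups did not overlap, and the difference was -3.61 in the set of 2 and -3.39 in the set of 3. Sema7a, a membrane-bound semaphorin 100.9 kb before Stra6, fell by 1.99 (SE 0.42, limma adjusted p = 0.007), with a difference of -2.72 in the set of 2 and -1.50 in the set of 3. Both calls were lost without controls 1 to 3, Islr with a limma adjusted p = 0.051 and Sema7a with a limma adjusted p = 0.0865. Within 500 kb of the middle of Stra6, 12 other genes were tested, of which 4 were lower and 1 was higher, beside 14.1% and 13.6% of all genes. The 4 include Pml (limma adjusted p = 0.0494), whose call was kept in only 6 of 21 alternative analyses.

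**Figure D4:**
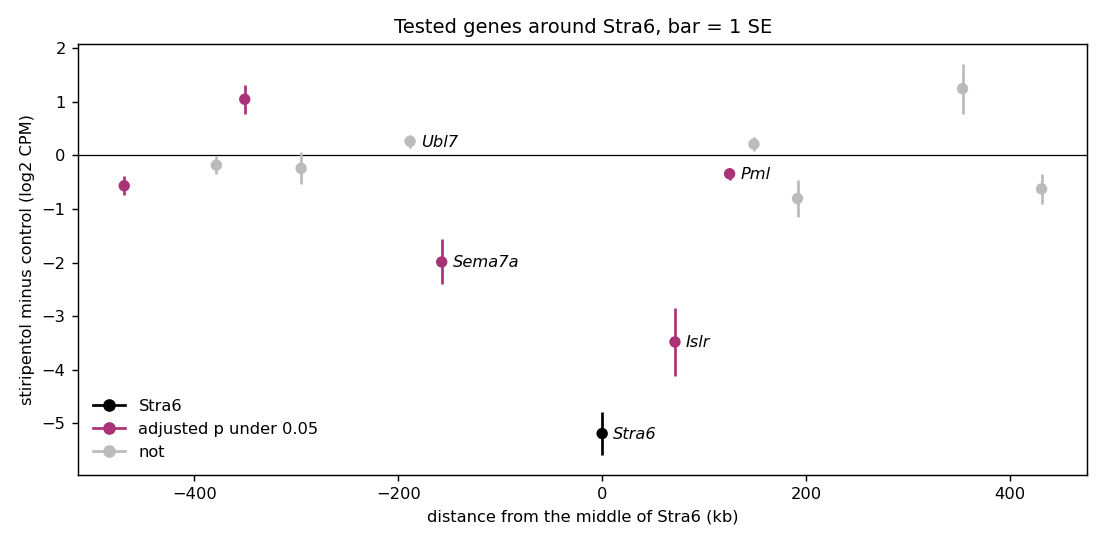
Stiripentol minus control in log2 CPM, with bars of 1 SE, for each tested gene within 500 kb of Stra6, by the distance between gene middles. Stra6 has the lowest value and the next gene, Islr, the second lowest, while Ubl7, not called, differs by 0.26 and Pml, called lower, by -0.34.

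The 5 genes whose pattern over the 10 libraries was most like that of Stra6 were Iars2, Plau, Cdk14, Ston1 and Crtap, with Pearson's r of 0.995, 0.992, 0.991, 0.991 and 0.989. The libraries form separate groups and share their depth and scaling, so r mostly tells the groups apart, and 179 genes reached 0.95. With the mean of each group subtracted, r was 0.938 for Iars2, a mitochondrial tRNA synthetase. For Plau, Cdk14, Ston1 and Crtap it was 0.882, 0.853, 0.787 and 0.782. Plau, the urokinase protease, was lower by 1.87 and Crtap, which helps collagen to fold, by 1.26, whereas Iars2 differed by -0.50.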

How the data were processed

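RNA was measured in 5 control and 5 stiripentol libraries. The deposited values are log2 CPM, made by the authors with GENAVi per the study's methods. The submitters' notes name the build mm10, while aligner, annotation and strand setting are not given in the sources used here. The methods name 3′ mRNA libraries and the labels total RNA libraries, so levels are not compared between genes. Columns of the authors' own comparison (group means, p-values, ratios) were not used. Whole reads were recovered from the log2 values (tolerance 0.05) for depth and CPM. They cover counting error only.

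Groups were compared with limma 3.58.1 in R 4.3.3 (lmFit, eBayes with trend) on the deposited log2 values of 12306 genes, those whose mean exceeded 0, with Benjamini-Hochberg adjustment and a threshold of 0.05. The labels do not say that libraries are separate cultures, so p-values measure the spread between these libraries. On simulated reads, limma recovered 200 of 200 changed genes, with 8 false calls among the 12106 unchanged genes of 12306. The simulation gave all genes the same small relative spread, made large changes and held no clusters of libraries. It therefore cannot give the rate of false calls in these libraries, which do form clusters. Python 3.11.15, pandas 2.3.3 and blastn 2.17.0+ were used for tables and transcript matches, GENCODE M21 for positions, overlaps and neighbors, and RefSeq windows (GRCm38.p6) for promoters.

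The members and the lists were chosen with earlier results of these data known. Named were all members, the deleted genes, each called list gene, 10 list genes whatever their result and the 5 genes most like Stra6. The results of some list genes are counted but not otherwise reported here. Any other gene was named with its values known. Alternatives were leaving out each library, a block for the replicate number, a term for the set, each set alone, 2 other filters, 1 CPM added before the logarithm, 2 other scalings and limma voom. Leaving out controls 1 to 3, and Vim from the mesenchymal sum, was chosen after seeing the data.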

Additional observations from a re-analysis of the deposited data

Results flagged for a closer look

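In 58 groups of 5 values examined, 3 had a lone library far from the rest by Dixon's criterion, where chance gives about 2.9. Control 5 had 22375625 reads, against 57991647 to 65299372 in the other controls. Aldh1a2 had -3.61 log2 CPM in that same control, from 1 read, against -4.82 to -4.74 in the others. Ncoa3 had 6.80 log2 CPM in stiripentol 1, against 7.07 to 7.14 in the other stiripentol libraries.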

How the results depend on the processing

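The Stra6 difference, for which the group was picked, lay between -5.43 and -2.90 on the log2 scale in the 20 alternatives that could fit it, which is a description and no support. With the filter at a mean log2 CPM above 1 it was not fitted. Among the 4 members above the filter, reversed differences were those of Rbp4 (-0.044) and Dhrs3 (0.342) in the set of 2 alone and of Dhrs3 (0.034) without controls 1 to 3. Below the filter, Crabp2, Aldh1a2 and Aldh1a3 also changed sign in some alternatives. Members called numbered 2, and 1 with no filter, with the filter at 1 and without controls 1 to 3, and 1 to 2 when single libraries were left out. The Rbp4 call was lost without control 1, 2 or 3 or stiripentol 3, 4 or 5. Over all genes, 3414 were called, and 2389 to 3320 with a library left out. Calls were also counted with a term for the set, in the set of 2 alone and in the set of 3 alone. In that order they numbered 6244, 8884 and 7959 over all genes (3336, 5726 and 3322 of them lower). Other retinoid genes gave 15, 17 and 19 (10, 13 and 7 of them lower), and response genes 11, 17 and 12 (11, 16 and 11 of them lower). Other retinoid genes called numbered 7, 4 to 8 with a library left out (4 without stiripentol 2) and 4 without controls 1 to 3. Response genes called numbered 7 to 9 with a library left out.

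Replicate numbers do not pair the libraries, as deviations of same-numbered libraries correlated at a mean of -0.152. With a replicate block, 2082 genes were called over all genes, 3 members, 6 other retinoid genes and 6 response genes. Calls that the block ended include those of Adh5 (limma adjusted p = 0.0578), Nr2f2 (limma adjusted p = 0.0701) and Pml (limma adjusted p = 0.0915). Depth limits Crabp1, Aldh1a2, Rarb and Aldh1a3, with at most 16 reads per library.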
